A study of Mus musculus with 24 samples.

Results

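The 4 mouse genes described here are Lmna, Lmnb1 and Lmnb2, which encode the nuclear lamins, and Lbr, which encodes the lamin B receptor. They were chosen by name as the full lamin family with the lamin B receptor, out of 22208 protein-coding genes on 20 chromosomes. No measured value was used to select them, but earlier results of these data were known when the choice was made. The question was whether the genes of the lamina themselves lay in chromatin that was recovered with lamins or with LAP2alpha. Chromatin immunoprecipitation and sequencing (ChIP-seq) had been performed in immortalized murine dermal fibroblasts (imMDF), a culture derived from mouse skin, with antibodies to LAP2alpha (8C10-1H11), to the N terminus of lamin A/C (N18), to the immunoglobulin fold of lamin A/C (3A6) and to lamin B1. Cells were Lap2alpha +/+ (WT) or Lap2alpha -/- (KO), which lack the LAP2alpha isoform of the gene Tmpo, and chromatin was sonicated for 12 or for 30 cycles. Only WT cells were used for the LAP2alpha and lamin B1 antibodies. Each combination of antibody, genotype and sonication was 1 library, which gave 8 WT and 4 KO libraries with lists of enriched regions. There were no replicates, so no spread between libraries of a group exists, no p-value was computed, and every difference below is a difference between single libraries. The deletion in KO cells and the identity of the cells could not be checked from lists of regions.

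Lamins are intermediate filament proteins that form a meshwork beneath the inner nuclear membrane. Lmna gives rise by alternative splicing to the A-type lamins A and C, part of which move freely in the nuclear interior and bind LAP2alpha there, whereas Lmnb1 and Lmnb2 encode the B-type lamins, which stay farnesylated and attached to the membrane. The lamin B receptor spans the inner nuclear membrane, binds B-type lamins and heterochromatin protein HP1, and carries a sterol reductase domain. Together with A-type lamins it is known for holding heterochromatin at the nuclear periphery.

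The 4 genes lie on different chromosomes and in unlike surroundings. Lmna occupies chr3:88285070-88313878 (mm9, minus strand, 28.8 kb), Lmnb1 occupies chr18:56867467-56913078 (plus strand, 45.6 kb), Lmnb2 occupies chr10:80363948-80380990 (minus strand, 17.0 kb) and Lbr occupies chr1:183745447-183772532 (minus strand, 27.1 kb). Their longest coding transcripts have 12, 11, 12 and 14 exons in the same order.

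Lmnb2 had the most crowded neighborhood, with 55 other protein-coding gene starts within 500 kb, a number above that of 97.5% of all genes. Lmna followed with 36 such starts, while Lbr had 9 and Lmnb1 had 7, against a median of 15 over all genes. The G and C content of the gene with 100 kb on both sides was 53.0% at Lmnb2, 49.4% at Lmna, 44.6% at Lmnb1 and 44.5% at Lbr, with a median of 44.3% over all genes. Lmnb2 and Lmna thus lay in the gene-dense and GC-rich part of the range, and Lmnb1 and Lbr close to the middle of the range in base composition.

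The promoters of the genes differed in base composition as well. The stretches below are the 250 bases before the annotated RefSeq start, read 5′ to 3′ on the strand of the gene, and are shown because they are the promoter sequences that the regions described below did or did not cover. Capitals mark CpG dinucleotides, the sites of DNA methylation in mammals. The sequences come from RefSeq (GRCm38.p6), and each was found exactly 1 time in mm9, at chr10:80380991-80381240 for Lmnb2, chr1:183772533-183772782 for Lbr and chr3:88307275-88307524 for Lmna, all on the minus strand.
Lmnb2: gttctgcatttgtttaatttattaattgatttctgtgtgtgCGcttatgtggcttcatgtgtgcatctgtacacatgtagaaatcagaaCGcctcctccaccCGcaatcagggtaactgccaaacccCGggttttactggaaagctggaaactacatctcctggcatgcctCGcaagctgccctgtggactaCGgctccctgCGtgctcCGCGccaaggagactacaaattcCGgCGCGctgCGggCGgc
Lbr: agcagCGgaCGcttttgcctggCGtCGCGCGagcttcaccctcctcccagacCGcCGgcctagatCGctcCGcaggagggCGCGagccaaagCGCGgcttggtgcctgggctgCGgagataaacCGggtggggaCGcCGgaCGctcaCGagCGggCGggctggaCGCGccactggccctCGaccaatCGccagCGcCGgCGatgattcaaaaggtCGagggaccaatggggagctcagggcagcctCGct
Lmna: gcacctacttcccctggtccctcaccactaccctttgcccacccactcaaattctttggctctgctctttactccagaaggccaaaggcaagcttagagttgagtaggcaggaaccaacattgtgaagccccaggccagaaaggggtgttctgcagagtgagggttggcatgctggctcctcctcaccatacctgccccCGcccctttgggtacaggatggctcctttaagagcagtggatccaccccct

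The Lbr window held 31 CpG dinucleotides, more than 94.8% of 32841 promoter windows of the same length. The Lmnb2 window held 14, more than 70.6% of windows, and the Lmna window, which lies by the start of its longest coding transcript, held 1, when the median window held 6. The letters CCAAT, searched on both strands, occurred 2 times in the Lbr window and in neither of the other windows shown, and 33.9% of all windows held them at least 1 time. Lmna and Lmnb2 each have another RefSeq start inside the gene, whose windows are not printed. The window of Lmna there held 4 CpG and CCAAT 1 time, and that of Lmnb2 held 5 CpG and no CCAAT, so the CpG count of Lmnb2 above the median applies to its outer start. A promoter of Lmnb1 is not shown here.

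Enriched regions were of 2 kinds. Domains from the enriched domain detector (EDD) had median lengths from 0.649 to 1.23 Mb per library, and a gene counted as inside when the domains covered 50% or more of its length. Islands from SICER had median lengths from 17 to 24 kb, and a gene counted as having an island when any base was covered. The lists held 194 to 370 domains and 4183 to 9159 islands per library, with 3989494 to 13601739 reads inside islands, a number that also depends on how much was called. Chromosomes differed in whether anything was called on them. Chromosome 10, which carries Lmnb2, held 0 domains in either KO library of 12 cycles, with 1 island for N18 and 0 for 3A6 there, against 208 and 223 islands in the corresponding WT libraries. Chromosome 3, which carries Lmna, held 0 domains with LAP2alpha at 30 cycles, and chromosome 1, which carries Lbr, held 4 to 16 islands in every library. A value of 0 for a gene in those libraries is therefore shared with its whole chromosome.

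Lmnb2 was inside EDD domains in 5 of the 12 libraries and Lbr in 2, and every one of these domains covered the whole gene. Lmna and Lmnb1 were inside a domain in 0 of 12 libraries. Of all genes, 32.9% were inside no domain of any library and 19.9% were inside domains of at least 5 libraries, so both kinds of pattern were common. When each library kept its highest-scoring domains up to the same total length of 239 Mb, Lmnb2 was inside in 0 libraries and Lbr in 1, N18 in WT at 12 cycles. For islands the order of the genes was different. Lmnb1 and Lmnb2 each had an island in 4 libraries, Lmna in 2 and Lbr in 0, and 42.0% of all genes had an island in no library. With 1 library per group the neighbors in these orders cannot be told apart beyond error.

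**Figure D1:**
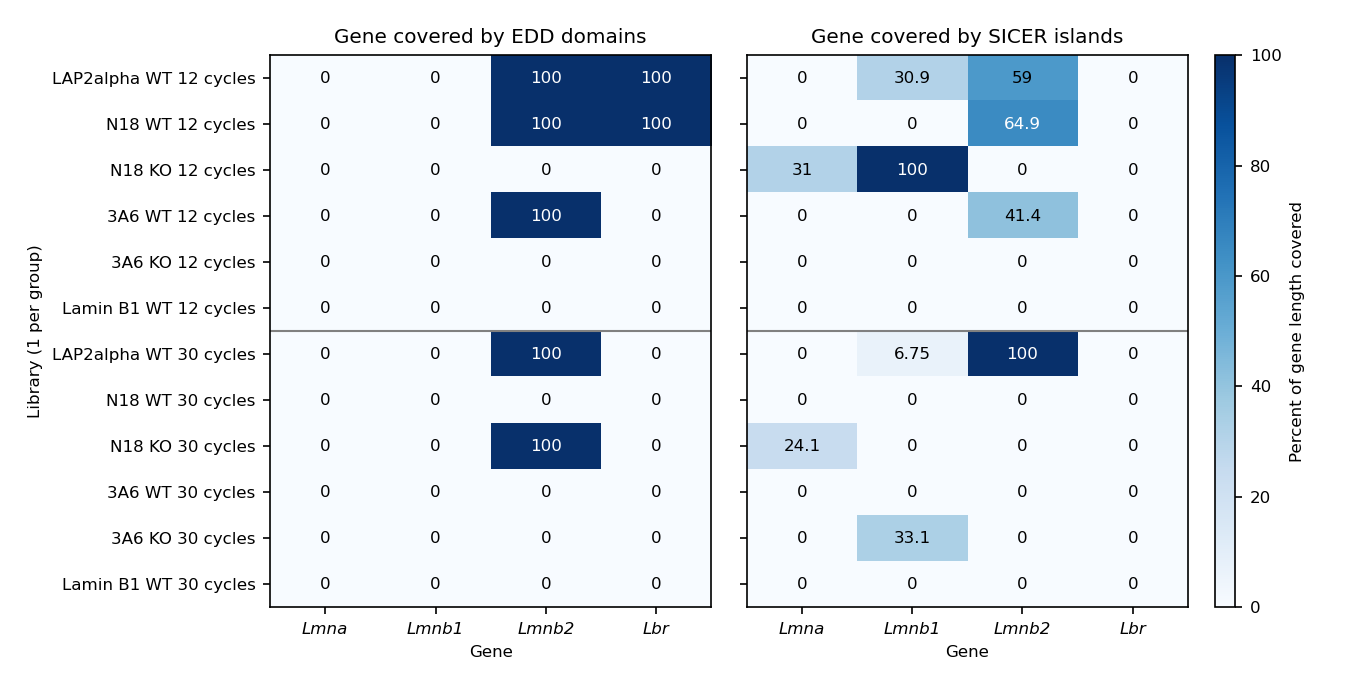
Percent of the length of each gene (columns) covered by EDD domains (left) and SICER islands (right) in the 12 libraries (rows, 1 library each, no error bars); the line separates 12 from 30 cycles. Domains covered Lmnb2 in 5 libraries and Lbr in 2, and were absent from Lmna and Lmnb1, which had islands in 2 and 4 libraries.

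Lmnb2 encodes lamin B2, a B-type lamin. In WT cells at 12 cycles its whole length lay in domains of LAP2alpha, of N18 and of 3A6, a combination that 17.4% of all genes had. Each library alone held 35.9% of all genes inside domains for LAP2alpha, 27.4% for N18 and 21.1% for 3A6. The LAP2alpha domain was the widest of the 3, at chr10:74382001-81026000 (6.64 Mb), and its EDD score of 32.5 stood against a median of 9.55 over the domains of that library. The N18 domain spanned chr10:78980001-81125000 (2.15 Mb, score 14.8, library median 8.02). The 3A6 domain spanned chr10:79662001-80608000 (0.946 Mb) with a score of 6.26, below the median of 8.35 of its library. The 3 domains were therefore nested around the gene on its 3′ side, where the edge lay 5982 kb away for LAP2alpha, 1384 kb for N18 and 702 kb for 3A6. The N18 and 3A6 libraries shared a flow cell, and the LAP2alpha library and the lamin B1 libraries each came from another. Between those, antibody and sequencing run cannot be told apart.

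At 30 cycles Lmnb2 stayed inside a LAP2alpha domain, at chr10:77088001-81103000 (4.02 Mb, score 15.9), in a library where 32.3% of all genes were inside. With N18 at 30 cycles it was outside in WT, where 5.89% of genes were inside and the nearest domain lay 5.97 Mb beyond its start, and inside in KO, where 28.5% of genes were inside. The KO domain, chr10:78980001-80388000 (1.41 Mb, score 8.56), ended 7.01 kb beyond the start of the gene. Lmnb2 thus lay less than 1 calling bin of 11 kb from this edge, and its promoter was still covered. Another domain of this library lay from -623 to -51.0 kb, where negative values are beyond the start. Together the domains covered 79.1% of the gene with 1 Mb on each side. With 3A6 at 30 cycles the gene was outside in WT, where the nearest domain ended 1373 kb beyond its 3′ end, and outside in KO. In KO, however, a short domain, chr10:79871001-80355000 (0.484 Mb, score 3.51), reached to 8.95 kb from its 3′ end. This edge, too, lay less than 1 calling bin of 11 kb from the gene. Of all genes, 9.40% were inside a 3A6 domain in WT and 12.6% in KO at 30 cycles.

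**Figure D2:**
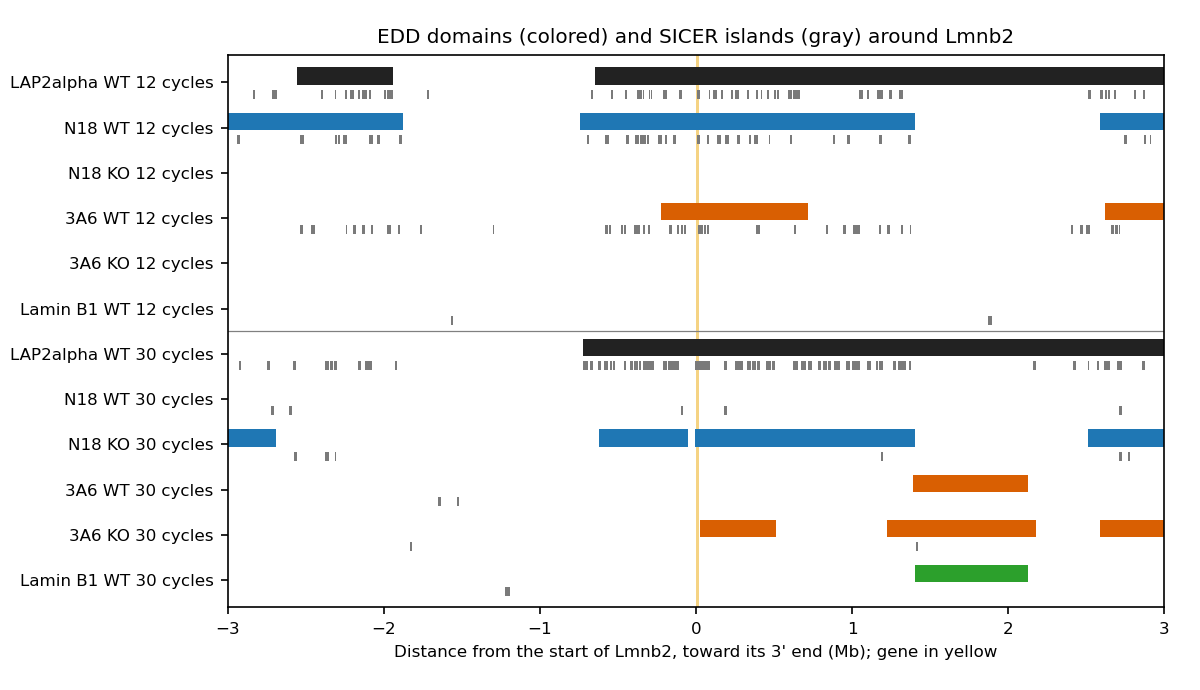
EDD domains (colored bars) and SICER islands (gray ticks) within 3 Mb of the start of Lmnb2 in the 12 libraries, plotted by distance from the start toward the 3′ end of the gene, with the gene in yellow and bars cut at the panel edges. Bars cross the gene in 5 libraries, and the rows of both KO libraries of 12 cycles are empty. The N18 KO bar at 30 cycles ends 7.01 kb beyond the start, and another bar of that library begins at -51.0 kb.

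Lamin B1 domains did not reach Lmnb2 at either sonication. At 12 cycles the nearest one lay 19972 kb away. At 30 cycles the nearest one, chr10:78254001-78980000, ended 1384 kb beyond the 3′ end of the gene. The N18 domains of WT at 12 cycles and of KO at 30 cycles that held Lmnb2 began at the next base, an edge set by calling bins of 11 kb. These 2 N18 domains and the lamin B1 domain thus did not overlap, though they differ in sonication or genotype. With N18 in WT at 30 cycles, the library that matches in both, the nearest domain lay 5.97 Mb from the gene. Both LAP2alpha domains that held Lmnb2, in contrast, spanned this whole lamin B1 domain.

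Islands on Lmnb2 were found in 4 of the 5 libraries with a domain there. They covered 59.0% of the gene with LAP2alpha at 12 cycles, 64.9% with N18 in WT at 12 cycles, 41.4% with 3A6 in WT at 12 cycles and 100% with LAP2alpha at 30 cycles. The 12-cycle islands lay on the 3′ part and left out exon 1 of 12, and with 3A6 also exon 2, while the LAP2alpha island of 30 cycles, chr10:80319001-80386000, covered the start and the promoter. That island held 2462 reads, or 36.7 reads per kb, at the level of the median island of its library (36.8). The share of all genes with an island was 27.8%, 26.0%, 22.3% and 18.5% in these 4 libraries in the same order. The N18 KO library of 30 cycles had no island within 1168 kb of Lmnb2, although its domain covered the gene. This was not particular to Lmnb2, as chromosome 10 held 44 islands in that library. Of its genes 4.23% had an island and 26.3% were inside domains.

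Lbr, the receptor gene, was inside a domain in WT cells at 12 cycles with LAP2alpha and with N18, and outside with 3A6, a combination found for 7.96% of all genes. The LAP2alpha domain was chr1:182083001-184822000 (2.74 Mb, score 27.4) and the N18 domain chr1:180356001-184921000 (4.57 Mb, score 25.5). Both scores stood above the medians of their libraries (9.55 and 8.02), and both domains filled the 1 Mb on each side of the gene. With 3A6 in the same cells a domain began 224 kb beyond the start of Lbr, chr1:183997001-184866000, and another lay on the 3′ side. Together the 3A6 domains covered 44.1% of the gene with 1 Mb on each side, and the gene lay in the gap between them. In the other libraries Lbr lay farther out. The nearest domain was 719 kb away with LAP2alpha at 30 cycles, 870 kb with N18 in KO at 12 cycles and 1211 kb with N18 in KO at 30 cycles. It was 3.29 Mb away with 3A6 in KO at 12 cycles, and in the remaining 5 libraries the distance ran from 3.60 Mb for lamin B1 at 30 cycles to 8.14 Mb for 3A6 in KO at 30 cycles.

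No library had an island on Lbr. The nearest islands lay 771 kb away with N18 in KO at 12 cycles and 1647 kb away with N18 in WT at 12 cycles, and at least 10.2 Mb away in all the others. This absence was not particular to the gene, as islands touched 1.22% to 2.12% of the protein-coding genes of chromosome 1. On chromosome 1 the domains, in contrast, covered 6.69% to 66.2% of the chromosome, and 59.7% of its genes were inside LAP2alpha domains at 12 cycles.

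**Figure D3:**
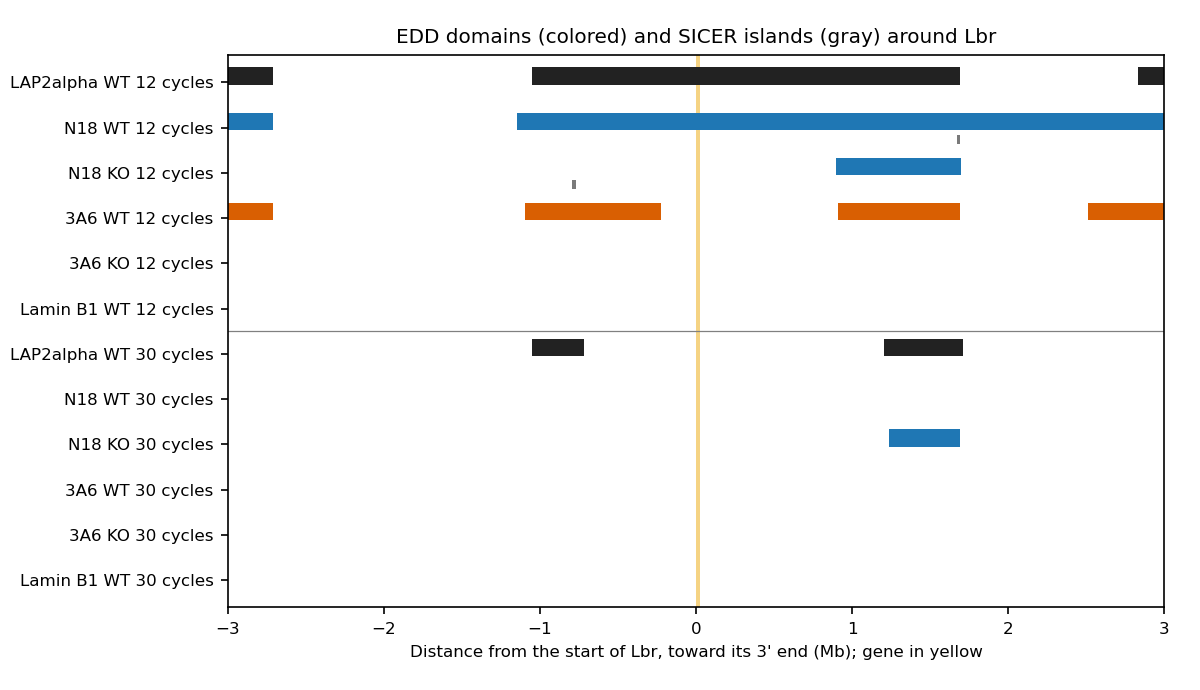
EDD domains (colored bars) and SICER islands (gray ticks) within 3 Mb of the start of Lbr in the 12 libraries, plotted by distance from the start toward the 3′ end of the gene, with the gene in yellow and bars cut at the panel edges. Bars cross the gene with LAP2alpha and N18 in WT at 12 cycles, 3A6 domains of the same cells leave a gap around it, and no island touches it.

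Lmna, the gene of the A-type lamins that N18 and 3A6 detect, was outside the domains of all 12 libraries. Its nearest domains were 599 kb away with LAP2alpha at 12 cycles, 610 kb with N18 in KO at 12 cycles and 604 kb with N18 in KO at 30 cycles. The LAP2alpha and N18 domains of 12 cycles lay on the side of the start, and the 30-cycle one lay beyond the 3′ end. In WT at 12 cycles chromosome 3 held 1 domain with N18 and 1 with 3A6, 64.5 and 64.2 Mb from Lmna. Lamin B1 domains lay 2.57 Mb from Lmna at 12 cycles and 2.61 Mb at 30 cycles. The LAP2alpha library of 30 cycles had no domain on chromosome 3 and thus no distance. The remaining libraries ranged from 2.30 Mb with 3A6 in KO at 12 cycles to 9.57 Mb with 3A6 in KO at 30 cycles.

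Islands, in contrast, reached into Lmna in both N18 libraries of KO cells and in no other library. At 12 cycles the island chr3:88184001-88294000 held 2515 reads (22.9 reads per kb, library median 20.7), covered 31.0% of the gene and touched 11 of the 12 exons of its longest coding transcript. At 30 cycles the island chr3:88190001-88292000 held 5449 reads (53.4 reads per kb, library median 46.4), covered 24.1% of the gene and touched 10 of the 12 exons. Both islands came from the 3′ side and stopped short of exon 1, so the start and the promoter shown above were uncovered. Islands touched 24.0% and 22.7% of all genes in these 2 libraries. Whole chromosome 3 carried more island cover in KO than in WT with N18, 24.0% against 7.93% at 12 cycles and 20.8% against 13.2% at 30 cycles, and the part of this chromosome-wide difference in the calls on Lmna was not tested. With LAP2alpha at 12 cycles an island ended 5.07 kb beyond the 3′ end of the gene.

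Lmnb1 encodes lamin B1, the target of the lamin B1 antibody. It was outside the domains of all 12 libraries, and its nearest domain was at least 1.73 Mb away, the distance with lamin B1 at 30 cycles. The distances ran up to 17.0 Mb with N18 in WT at 12 cycles. In WT cells at 12 cycles Lmnb1 lay 10.3 Mb from LAP2alpha domains, 16.3 Mb from 3A6 domains and 10.8 Mb from lamin B1 domains, so no antibody had a domain in its vicinity. No domain touched the 1 Mb on either side of Lmnb1 in any library. The share of chromosome 18 genes inside domains ran from 1.17% with N18 in WT at 30 cycles to 36.7% with N18 in KO at 12 cycles.

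Islands on Lmnb1 were found in 4 libraries. With N18 in KO at 12 cycles the island chr18:56856001-56949000 (2010 reads) covered the whole gene and its start. With 3A6 in KO at 30 cycles the island chr18:56898001-56938000 (2008 reads) covered 33.1%, and with LAP2alpha the islands chr18:56899001-56915000 at 12 cycles (326 reads) and chr18:56910001-56933000 at 30 cycles (759 reads) covered 30.9% and 6.75%. The last 3 lay at the 3′ end and left the start uncovered. Islands touched 8.84% of all genes with 3A6 in KO at 30 cycles. Chromosome 18 again carried more island cover in these KO libraries, 39.4% against 2.26% in WT with N18 at 12 cycles and 30.6% against 0.334% with 3A6 at 30 cycles, and 73.8% of its genes had an N18 island in KO at 12 cycles.

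**Figure D4:**
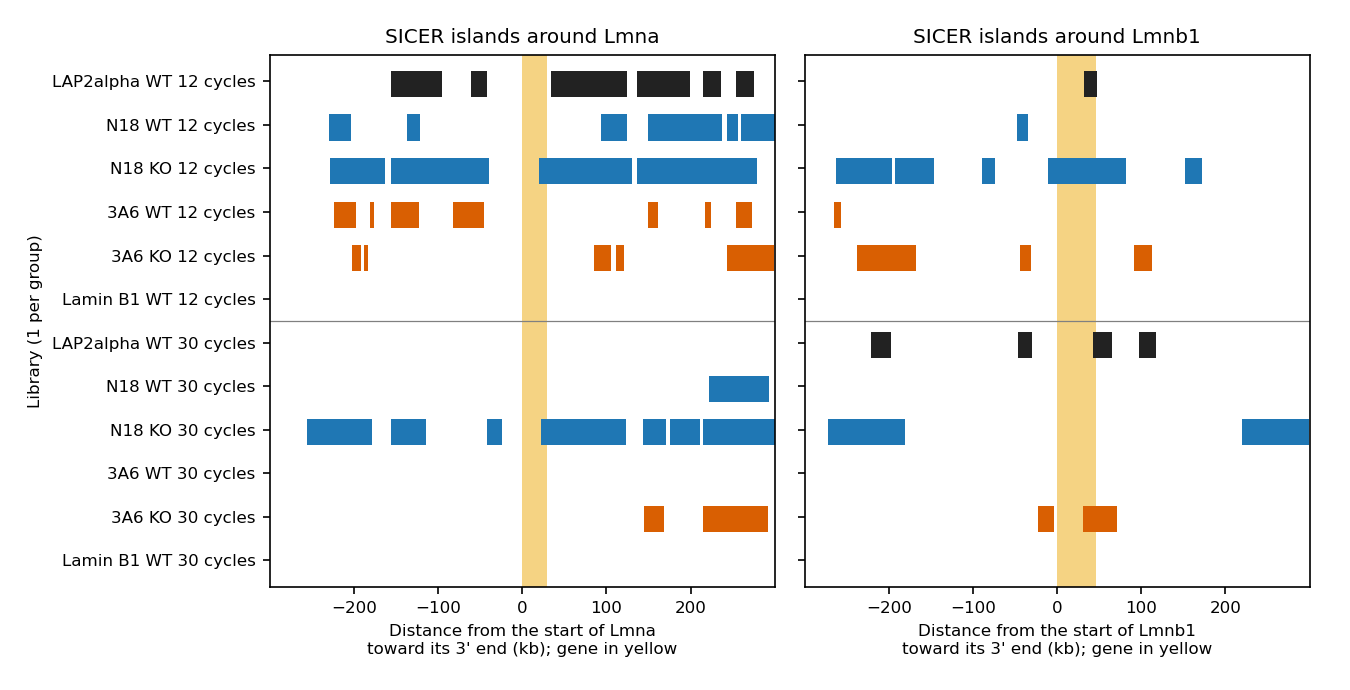
SICER islands (bars) within 300 kb of the start of Lmna (left) and Lmnb1 (right) in the 12 libraries, plotted by distance from the start toward the 3′ end, with the gene in yellow. Bars reach into the 3′ part of Lmna in both N18 KO libraries, and cover 100%, 33.1%, 30.9% and 6.75% of Lmnb1 in 4 libraries.

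With the lamin B1 antibody none of the 4 genes was inside a domain or had an island at either sonication. Domains held 7.78% of all genes at 12 cycles and 16.8% at 30 cycles, and 17.4% of all genes at 1 or both. Islands touched 8.93% and 8.17% of all genes at 12 and 30 cycles. The shares on the chromosomes of the genes were 0.777% and 1.36% for Lmnb1, 0.770% and 1.15% for Lmnb2, and 1.31% and 1.39% for Lbr. For Lmna they were 15.7% and 15.3%. The absence of lamin B1 islands from Lmnb1, Lmnb2 and Lbr was thus shared with nearly all genes of their chromosomes. The gene nearest to a lamin B1 domain was Lmnb2 at 1384 kb, followed by Lmnb1 at 1.73 Mb, Lmna at 2.57 Mb and Lbr at 3.60 Mb, each taken at the sonication with the shorter distance. At 30 cycles, 54.7% of all genes were nearer to a lamin B1 domain than Lmnb2, and 81.4% were nearer than Lbr.

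**Figure D5:**
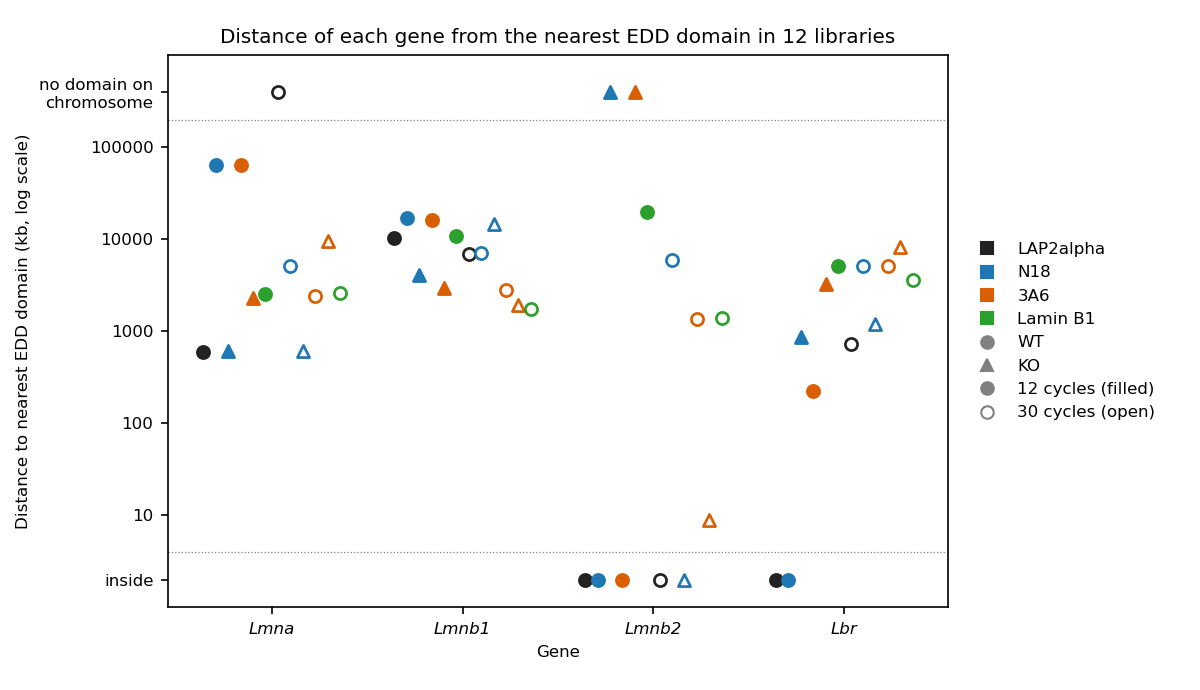
Distance from each gene to the nearest EDD domain (kb, log axis) in the 12 libraries, 1 point each; color gives the antibody, circles WT, triangles KO, filled 12 cycles, open 30 cycles, with genes inside a domain on the lowest line and libraries with no domain on the chromosome on the highest. Lmnb2 shows 5 points inside and 1 at 8.95 kb, Lbr shows 2 inside, and all points of Lmna and Lmnb1 lie at 599 kb or more.

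KO and WT libraries of lamin A/C were compared at the same antibody and sonication, where they also shared the flow cell and lane. Each of the 4 genes was compared in 4 pairs, and 4 of these 16 calls differed in domains. With domain sets of the same total length 1 call differed, that of Lbr with N18 at 12 cycles, and no call of Lmnb2 did. With N18 at 12 cycles Lmnb2 and Lbr were inside in WT alone, as were 11.9% of all genes, and 0 of the 4 genes was inside in KO, where 23.1% of all genes were. With 3A6 at 12 cycles Lmnb2 was inside in WT alone, as were 15.4% of all genes, and 10.7% of all genes were inside in KO. With N18 at 30 cycles Lmnb2 was inside in KO alone, as were 24.4% of all genes. With 3A6 at 30 cycles no call of the 4 genes differed, when 14.7% of all genes differed either way. For Lmnb2 this rests on a KO domain edge 8.95 kb from the gene, less than 1 calling bin.

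The direction at Lmnb2 with N18 differed between the 2 sonications, with domains in WT alone at 12 cycles and in KO alone at 30 cycles. These 2 pairs came from different flow cells, so sonication and sequencing run cannot be told apart. At 12 cycles the KO libraries had 0 domains on the whole of chromosome 10, so the absence at Lmnb2 and the absence from the chromosome cannot be told apart. For Lbr this limit does not hold, since chromosome 1 held 32 N18 domains in WT and 26 in KO at 12 cycles, with 54.1% and 37.9% of its genes inside. For N18 at 30 cycles the WT list covered 239 Mb and the KO list 472 Mb, and chromosome 10 held 3 and 13 domains. When the 14 pairs with domains of both genotypes on the chromosome were kept, a choice made after the data were seen, 2 of 14 calls differed, namely Lbr and Lmnb2 with N18.

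Island calls differed between genotypes at Lmnb2, as domain calls did, and also at Lmna and Lmnb1. With N18 at 12 cycles Lmnb2 had an island in WT alone, as did 11.9% of all genes, whereas Lmna and Lmnb1 had one in KO alone, as did 9.87%. With 3A6 at 12 cycles Lmnb2 had an island in WT alone (14.9% of all genes), and in KO, where 12.9% of all genes had one, none of the 4 did. At 30 cycles Lmna had an island in KO alone with N18 (14.9% of all genes) and Lmnb1 in KO alone with 3A6 (6.66% of all genes). In the WT libraries of 30 cycles no gene of the 4 had an island with N18 or 3A6, when 14.6% and 8.27% of all genes did. The shares on their own chromosomes were lower for Lmnb1 (7.18% and 1.75%), Lmnb2 (5.20% and 1.06%) and Lbr (1.22% and 1.22%). They were higher for Lmna (23.4% and 19.3%). In island calls Lmna and Lmnb1 were thus called in KO and not in WT wherever N18 or 3A6 libraries differed at them, and Lmnb2 in WT and not in KO. Whole chromosomes differed in the same directions in these pairs. Chromosome 10 held 1 (N18) and 0 (3A6) islands in KO at 12 cycles, against 208 and 223 in WT. Chromosomes 3 and 18 carried more island cover in KO, as given above. The part of these chromosome-wide differences in the calls was not tested.

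The 2 sonications were compared at the same antibody and genotype, in 6 pairs. The libraries of 12 and of 30 cycles came from different flow cells for every antibody but lamin B1, so sonication and sequencing run cannot be told apart, and these pairs use the same libraries as the genotype pairs. Of 24 calls, 5 differed in domains, and with domain sets of the same total length 1 did, that of Lbr with N18 in WT. With LAP2alpha Lmnb2 was inside at both sonications and Lbr at 12 cycles alone, as were 15.7% of all genes. With N18 in WT Lmnb2 and Lbr were inside at 12 cycles alone (24.2% of all genes), and with 3A6 in WT Lmnb2 was inside at 12 cycles alone (20.1%). With N18 in KO Lmnb2 was inside at 30 cycles alone (12.2%). No call differed with 3A6 in KO or with lamin B1, where 12.8% and 10.2% of all genes differed either way.

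In WT cells each domain that held a gene of the 4 with N18 or 3A6 was thus a domain of 12 cycles. LAP2alpha at Lmnb2 was the pair that held at both sonications, and the distance from the gene start to the edge on that side was 645 kb at 12 cycles and 722 kb at 30 cycles. In island calls Lmnb1 and Lmnb2 had LAP2alpha islands at both sonications, and no LAP2alpha island call of the 4 genes differed, when 27.3% of all genes differed. Lmnb2 had an island at 12 cycles alone with N18 in WT (16.9% of all genes) and with 3A6 in WT (18.3%). On the whole of chromosome 10 the share of genes with an island was also lower at 30 than at 12 cycles. It was 5.20% against 14.6% with N18 in WT and 1.06% against 15.0% with 3A6 in WT. In KO cells Lmna had an N18 island at both sonications, Lmnb1 had an N18 island at 12 cycles alone (9.97%) and a 3A6 island at 30 cycles alone (4.47%). With lamin B1 no island call of the 4 genes differed, when 6.94% of all genes differed.

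The domain calls of the genes were shared with their neighbors to different degrees. All 36 other protein-coding genes starting within 500 kb of Lmna, and all 7 around Lmnb1, were inside no domain either. This largely follows from the distances above, since no domain lay within 599 kb of Lmna or 1.73 Mb of Lmnb1. Around Lmnb2 9 of 55 genes had the same 12 calls. Its nearest neighbor Timm13, a chaperone gene of mitochondrial protein import 0.233 kb from its 3′ end, had the same 12 domain calls and the same 12 island calls. The neighbor on the other side, Gadd45b, a stress-response gene 11.8 kb away, had 11 of 12 domain calls in common and an island in 0 libraries. Around Lbr 5 of 9 genes had the same 12 calls, among them Dnahc14 and Gm5533 on either side. At Lmna the neighbors were Sema4a, a semaphorin, and Mex3a, an RNA-binding protein, 19.97 and 22.4 kb away. Sema4a had islands in both N18 KO libraries and with LAP2alpha at 12 cycles, and Mex3a in N18 KO at 30 cycles. At Lmnb1 the near neighbor March3, a ubiquitin ligase 8.29 kb away, had islands in 3 of the 4 libraries that had one on Lmnb1, and also with 3A6 in KO at 12 cycles. The neighbor on the other side, 1700065I17Rik, 113 kb away, had islands in none.

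Genes with the same 12 domain calls were looked up across the genome. The pattern of Lmnb2 was shared by 370 other genes (1.67% of all genes) and that of Lbr by 361 (1.63%), while the empty pattern of Lmna and Lmnb1 was shared by 7299 (32.9%). On other chromosomes and by the percent covered in each of the 12 libraries, long genes with a mean difference of 0 were Ulk4, Ralgps1 and Xkr6 for Lmnb2 and Trerf1 and Chst11 for Lbr. For Lmna they were Macrod2, Pde4d and Prkg1, and for Lmnb1 Macrod2, Pde4d and Arfip1. Such a match compares 12 calls that share inputs, since the series lists 1 input for each genotype and sonication.

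The same counts were made for 5 lists of genes whose products work with or resemble the lamins and the lamin B receptor. Among the 4 genes described here the median gene was inside domains of 1 library, and among all genes of 2. From each list the genes inside domains of the most libraries are named, and a few others, chosen after their values were seen. Of 8 genes that encode LEM-domain proteins, which bind lamins and chromatin, or their partner Banf1, 2 were inside no domain, and the median was 1.5 libraries. Lemd1, Lemd2 and Ankle1 were each inside domains of 5 libraries, as Lmnb2 was, and Ankle2 in 2, the same 2 as Lbr. Unlike Lmnb2, these 3 genes with 5 domains were inside an N18 domain in KO at 12 cycles, and none of them lies on chromosome 10. The 2 genes inside no domain were Tmpo, the gene of LAP2alpha itself, and Lemd3, both on chromosome 10, and both had 0 islands. Emd, which encodes emerin, was inside a domain with lamin B1 at 30 cycles alone.

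Of the 7 annotated genes of the LINC complex, which links the lamina to the cytoskeleton, 1 was inside no domain, namely Syne1, and the median was 4 libraries. Sun5 was inside domains of 9 libraries and Sun1 of 7, both more than Lmnb2, and Sun2 and Sun3 of 4. Of the 5 genes whose products process the CaaX tail of prelamin A and B-type lamins, 1 was inside no domain (Fnta), and the median was 1 library. Icmt, the methyltransferase of this pathway, was inside in 6 libraries and Fntb, a subunit of the farnesyltransferase, in 5, which were the same 5 libraries as for Lmnb2. The proteases Rce1 and Zmpste24 were inside in 1 library each, with N18 in WT at 12 cycles and with LAP2alpha at 30 cycles.

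Among 6 partners and relatives of the lamin B receptor, 3 were inside no domain, the HP1 genes Cbx1, Cbx3 and Cbx5, and the median was 1.5 libraries. Dhcr7, which encodes an enzyme of sterol synthesis, was inside domains of 6 libraries, and Tm7sf2 of 3. Tm7sf2, whose product has the same reductase activity as the lamin B receptor, was inside with LAP2alpha and N18 in WT at 12 cycles, as Lbr was, and in addition with 3A6. Of 12 genes of cytoplasmic intermediate filaments, the relatives of the lamins, 5 were inside no domain, among them the fibroblast filament gene Vim, and the median was 1 library. Bfsp2, a lens filament gene, was inside domains of 8 libraries, including lamin B1 at 12 cycles, Des of 6, Nefh of 3 and Ina of 2.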

How the data were processed

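ChIP-seq region lists of 12 libraries were used, and the 12 input and histone-mark samples are not analysed here. As the submitters' processing notes and the study's methods state, the authors clipped adapters (cutadapt), mapped to mm9 (Bowtie2 2.1.0), dropped reads with mapping quality under 20, removed duplicates and reduced ChIP reads to the number of the matching input with Picard. Domains were called with EDD 1.0.2 (bins of 11 kb, gap penalty 5, FDR 0.1) and islands with SICER 1.1 (windows of 1000 bp, gaps of 3000 bp, FDR 0.01), in each library against its input. The deposited domain lists give a score that the authors' caller assigned to each domain. The deposited island lists give counts of ChIP reads per island, made by the authors and divided by neither length nor input. The lists give reads inside called islands and not the sequencing depth, which limits which regions could be called and was not used here.

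Genes were protein-coding genes of GENCODE vM1 on NCBIM37, which is mm9, with 1 record a symbol (22208 of 22350), and 0 regions passed a chromosome end. Positions count from 1. Covered length and distances were computed in Python 3.11.15 with numpy 2.4.6 and checked against base-by-base counting on simulated intervals. Distances run from the gene to the nearest edge. Groups were taken from the labels, 1 library each, so no test was made. The 4 genes, the 5 lists and the comparisons were chosen with earlier results of these data known. Named beside the 4 genes were the nearest protein-coding gene on each side, the 3 genes on other chromosomes most like each in the percent covered over 12 libraries (the longest at a tie) and from each list up to 4 genes inside domains of the most libraries, in list order at a tie. Some genes that this rule picks are not reported here. Syne3 and Syne4 had no annotated record. Promoters of Lmna, Lmnb2 and Lbr came from RefSeq. Alternatives were other overlap rules, flanks, score, read count and length limits, and domain sets of equal total length, and, added after the data were seen, libraries with a domain on the chromosome. Figures were drawn with matplotlib 3.10.9.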

Additional observations from a re-analysis of the deposited data

Results flagged for a closer look

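The difference between genotypes at Lmnb2 with N18 had opposite directions in the 2 sonications. The percent of the gene inside a domain was 100 lower in KO than in WT at 12 cycles (a difference of -100 percentage points) and 100 higher at 30 cycles. Set out by genotype, the same 4 libraries differ by -100 between 30 and 12 cycles in WT and by 100 in KO. Each value rests on 1 library, and the difference between the sonications or genotypes was not tested. Of all genes, 11.9% were inside N18 domains in WT alone at 12 cycles and 24.4% in KO alone at 30 cycles. When domain sets were cut to the same total length, Lmnb2 was inside in 0 libraries, so neither difference remained. At 12 cycles the KO library had 0 domains on chromosome 10. At 30 cycles the domain ended 7.01 kb beyond the start of the gene, and another domain lay farther out, from -623 to -51.0 kb.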

How the results depend on the processing

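No paired analysis was possible because each group has 1 library and the labels carry no replicate numbers. Of 70 values recomputed under alternatives, 59 stayed within 1.5 times the reported count and 11 did not. The domain counts of Lmna and Lmnb1 stayed at 0 under each alternative for domains. This was fixed in advance, as the nearest domains lay 599 kb from Lmna and 1.73 Mb from Lmnb1. The widest flank tried for domains was 100 kb. The island count of Lbr was likewise fixed at 0, with the nearest island 771 kb away and a flank of 10 kb. These values are among the 59 and do not show that the counts are robust. When each library kept its highest-scoring domains up to the same total length of 239 Mb, Lmnb2 was inside in 0 libraries and Lbr in 1, and 1 call differed between KO and WT and 1 between 30 and 12 cycles. With pairs limited to chromosomes with domains in both libraries, added after the data were seen, 2 calls differed between KO and WT. Asking an island to cover 50% of the gene left 0 libraries for Lmna and 1 for Lmnb1. Asking it to cover the start left 0 for Lmna, 1 for Lmnb1 and 1 for Lmnb2, and islands above the median read count left 2 for Lmnb1. The causes were not tested. Sequencing depth, which limits calling, was not used here, since the lists give reads inside called islands alone, and a gene outside a list is not shown to lack contact.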
